A study of Mus musculus with 36 samples.

Results

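The genes described here are 6 surface ligands through which NK cells and other leukocytes recognize or adhere to a target cell: *Icam1*, *Icam2*, *Vcam1*, *Cd48*, *Pvr* and *Nectin2*. They were chosen by name and taken from the array values by gene symbol, which gave 6 of the 12394 genes on the arrays and 14 of the 20393 probe sets that carried 1 symbol. Where a gene had several sets, its brightest set gave the value. *Icam1* (chromosome 9), *Icam2* (chromosome 11) and *Cd48* (chromosome 1) had 1 probe set each, *Nectin2* (chromosome 7) had 2, *Vcam1* (chromosome 3) had 3 and *Pvr* (chromosome 7) had 6. All values are log2 expression, so a difference of 1 is a change of 2-fold. A level is compared only with the same gene in other tumors, because each probe set has its own brightness.

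Expression was measured in 36 mammary tumors. The mouse breast cancer lines 67NR and 66cl4 carried a retroviral (MMLV) shRNA against *Bptf*, which encodes a subunit of the chromatin remodeling complex NURF, or a control shRNA. In each line and host, 6 BPTF KD tumors and 3 controls were profiled. The hosts were NSG mice (NOD/SCID/Ifrg2r-/-), which lack T, B and NK cells, and BALB/cJ mice, which have them. All were females of 6 to 8 weeks and received the cells in the fourth mammary fat pad. 67NR tumors grew for 21 days after 100000 cells, and 66cl4 tumors for 28 days after 10000 cells. The design sets limits on what the groups can show. The knockdown was made in transduced cell lines. The hairpin of each tumor was not used, so the BPTF KD label does not tell which hairpin a tumor carried. NSG and BALB/c mice differ in strain as well as in lymphocytes, and the 2 lines differ in growth time and cell number, so these cannot be told apart. A tumor is a mixture of cells, and fewer cells of a type cannot be told apart from less RNA per cell.

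*Bptf* did not pass an adjusted p of 0.05 in any knockdown comparison, and the labels separated it most in 66cl4 tumors. At its brightest probe set it averaged 8.92 ± 0.17 in BPTF KD 66cl4 tumors of BALB/c mice (SD, n = 6), against 10.00 ± 0.56 in controls (n = 3), and 6 of 6 BPTF KD tumors lay below every control. In NSG mice 5 of 6 BPTF KD 66cl4 tumors and 3 of 6 BPTF KD 67NR tumors did so. In 67NR tumors of BALB/c mice the difference was -0.06 ± 0.45 (SE), with 2 BPTF KD tumors above every control and 1 below. Of the 3 dimmer *Bptf* sets, 2 were lower in BPTF KD tumors in each comparison, while the other gave 0.03 in 67NR and -0.14 in 66cl4 tumors of BALB/c mice and 0.06 in 67NR and 0.30 in 66cl4 tumors of NSG mice, the last with 6 of 6 BPTF KD tumors above every control. A direction given for 67NR tumors of BALB/c mice is therefore one between labels. The NK cell marker *Ncr1* was between 3.97 and 5.08 in the NSG tumors, against 6.29 to 10.36 in the BALB/c tumors, which fits the host labels. Array medians lay within 7.03 to 7.21, and no pair of arrays held identical values.

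ICAM-1 and ICAM-2 are immunoglobulin superfamily proteins bound by the integrin LFA-1, which NK cells and T cells use to form a firm contact with a target. VCAM-1 is bound by the integrin VLA-4 and is known for holding leukocytes to activated endothelium, although stromal cells and macrophages carry it too. CD48 belongs to the SLAM family, sits on most leukocytes, and is bound by 2B4 (encoded by *Cd244a*) on NK cells and by CD2. PVR (CD155) and NECTIN2 (CD112), of which NECTIN2 joins epithelial cells, are bound by the activating receptor DNAM-1 and by the inhibitory receptor TIGIT. *Icam1* and *Vcam1* are textbook targets of NF-kB, and *Icam1* is induced by interferon gamma.

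The bases before the transcription start are shown because *Icam1* is a known target of NF-kB, which acts through short promoter elements. RefSeq promoters (build GRCm38.p6) were found for 3 of the 6 genes, *Icam1* at chr9:21015780-21015939 on the plus strand, *Cd48* at chr1:171681832-171681991 on the plus strand and *Nectin2* at chr7:19749574-19749733 on the minus strand. Each run is the 160 bases before the start, 5′ to 3′. Capitals mark matches, on either strand, to GGNNNTTCC, a loose form of the NF-kB element.
Icam1: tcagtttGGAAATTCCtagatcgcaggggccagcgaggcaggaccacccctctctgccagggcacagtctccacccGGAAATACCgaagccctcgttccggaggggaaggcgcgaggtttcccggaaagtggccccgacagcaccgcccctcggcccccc
Cd48: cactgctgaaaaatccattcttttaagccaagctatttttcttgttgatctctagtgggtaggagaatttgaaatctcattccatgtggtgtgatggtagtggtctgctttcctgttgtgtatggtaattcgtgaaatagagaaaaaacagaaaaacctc
Nectin2: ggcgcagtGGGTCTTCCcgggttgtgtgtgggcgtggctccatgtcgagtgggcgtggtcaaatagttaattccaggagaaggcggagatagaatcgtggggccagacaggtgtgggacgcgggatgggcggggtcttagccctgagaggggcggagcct
*Icam1* held matches at 2 places, at -153 to -145 on both strands and at -84 to -76 on the minus strand. *Nectin2* held 1 match, at -152 to -144, and *Cd48* held none. Of 32851 promoters of the same length, 10.9% held GGNNNTTCC. The matches describe letters in this window and were not tested as binding sites or against any expression difference.

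**Figure D1:**
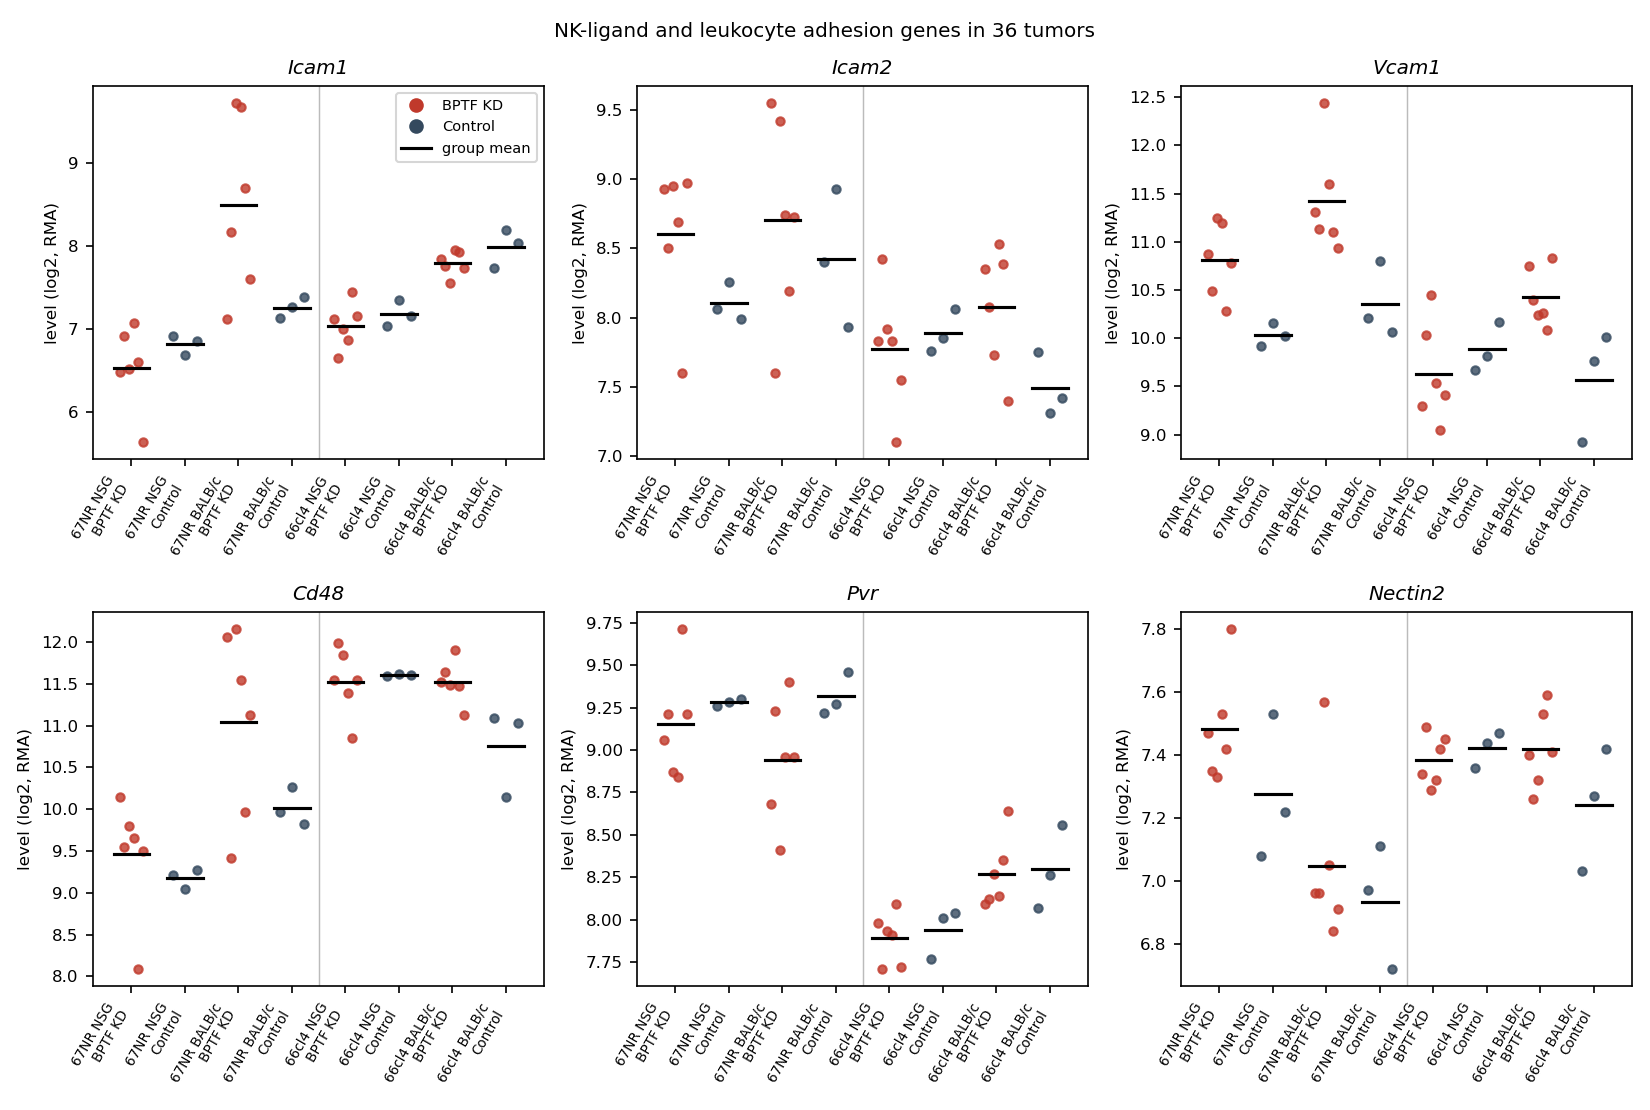
Log2 expression of the 6 genes in every tumor, 1 panel per gene; the horizontal axis lists the 8 groups of line, host and shRNA label, each point is a tumor and each bar a group mean. *Vcam1* lay above every control in all BPTF KD tumors of 67NR in both hosts and of 66cl4 in BALB/c mice, and *Pvr* lay higher in 67NR than in 66cl4 groups.

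The first question was whether the ligands differed between BPTF KD tumors and controls. None of the 6 genes passed an adjusted p of 0.05 with limma in any of the 4 comparisons. The share of all genes called was 0% in 67NR tumors and 0.186% in 66cl4 tumors of BALB/c mice, and 1.14% in 67NR tumors and 0% in 66cl4 tumors of NSG mice. An unadjusted p under 0.05 was reached by 1, 3, 1 and 0 of the 6 genes in the same order, and the methods' t-test also called 0 in each after adjustment. The p-values set each difference against the spread between tumors of a group. The member with the most regular difference was *Vcam1*, higher in all 6 BPTF KD tumors than in every control in 3 of the 4 comparisons.

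*Vcam1* in 67NR tumors of BALB/c mice had its lowest value of 10.94, its median of 11.22 and its highest of 12.44 in BPTF KD tumors, against 10.21, 10.80 and 10.06 in controls. The difference was 1.06 ± 0.32 (SE, adjusted p = 0.609), and the groups did not overlap. Of all genes in that comparison, 5.96% had groups that did not overlap, 3.13% with the BPTF KD tumors higher. In 66cl4 tumors of BALB/c mice the BPTF KD values ran from 10.08 over a median of 10.33 to 10.83, against 8.92, 9.76 and 10.01 in controls. The groups again did not overlap, as for 8.67% of all genes (3.78% with BPTF KD higher), and the difference was 0.86 ± 0.24 (adjusted p = 0.0789). Without control 1, the lowest of the group, it was 0.54 (adjusted p = 0.0895), and with array weights, which give less influence to arrays that fit poorly, 0.55 (adjusted p = 0.0567).

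*Vcam1* in 67NR tumors of NSG mice ranged from 10.28 to 11.25 (median 10.83) in BPTF KD tumors, against 9.92, 10.16 and 10.02 in controls. The difference was 0.78 ± 0.20 (adjusted p = 0.106), without overlap, as for 6.86% of all genes (3.76% with BPTF KD higher). Without BPTF KD tumor 5 it was 0.88, with adjusted p = 0.0200. The fibroblast marker list stood at 10.70 to 11.72 in these BPTF KD tumors and 10.09 to 10.66 in controls, likewise without overlap. The epithelial list, at 6.08 to 6.81 in BPTF KD tumors and 5.56 to 5.88 in controls, did not overlap either, and its keratin gene *Krt8* was 1.68 ± 0.20 higher (adjusted p = 0.00505). The part of either list in the *Vcam1* difference was not tested. The exception was 66cl4 in NSG mice, where *Vcam1* ran from 9.05 over 9.47 to 10.45 in BPTF KD tumors, against 9.67, 9.81 and 10.17 in controls. There 4 of 6 BPTF KD tumors lay below every control and 1 above, and the difference was -0.26 ± 0.27 (adjusted p = 0.890). Of all genes, 4.37% did not overlap in that comparison, and none of the 6 ligands was among them.

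The other 2 probe sets of *Vcam1* gave differences of 0.88 and 1.01 in 67NR tumors of BALB/c mice, 0.60 and 0.59 in 66cl4 tumors of BALB/c mice, and 0.54 and 0.80 in 67NR tumors of NSG mice. In 66cl4 tumors of NSG mice they gave -0.30 and 0.04. The sign was thus the same for all 3 sets except in the last comparison. Tested as an interaction, the *Vcam1* knockdown difference was 1.12 lower in NSG than in BALB/c mice for 66cl4 (-1.12 ± 0.39, adjusted p = 0.378). It was 1.03 ± 0.36 higher in 67NR than in 66cl4 within NSG mice (adjusted p = 0.253). Neither passed the threshold, and 0 of the 6 ligands passed in any of the 4 interaction tests. Of all genes, 0.96% passed in the test between lines in NSG mice and 0% in the other 3.

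*Icam1* spread widely in BPTF KD 67NR tumors of BALB/c mice, with an SD of 1.07, and *Cd48* did so too, with an SD of 1.13. The *Icam1* values there were 7.12 at the lowest, 8.44 at the median and 9.73 at the highest, against 7.13, 7.26 and 7.38 in controls. In this group 5 tumors lay above every control and tumor 1 just below, with tumors 3 and 4 highest, and the difference was 1.24 ± 0.56 (adjusted p = 0.649). In the remaining comparisons the *Icam1* difference was small and negative, at -0.19 ± 0.13 in 66cl4 tumors of BALB/c mice, -0.28 ± 0.26 in 67NR tumors of NSG mice and -0.14 ± 0.16 in 66cl4 tumors of NSG mice. Their adjusted p-values were 0.373, 0.680 and 0.899. The interaction between hosts in 67NR was -1.53 ± 0.66 (adjusted p = 0.671), and that between lines in BALB/c mice was 1.44 ± 0.61 (adjusted p = 0.496). With array weights, the *Icam1* difference in 67NR tumors of BALB/c mice was 1.84 (adjusted p = 0.0197).

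*Cd48* and *Icam2*, a ligand of leukocytes and one of endothelium and leukocytes, did not pass the threshold in any knockdown comparison, and *Cd48* differed most in the BALB/c tumors. In 66cl4 tumors *Cd48* ran from 11.13 over 11.51 to 11.90 in BPTF KD tumors, against 11.09, 10.15 and 11.03 in controls. All 6 BPTF KD tumors lay above every control, tumor 6 narrowly, as for 3.78% of all genes. The difference was 0.77 ± 0.21 (adjusted p = 0.0805). Without control 2, the lowest of the group, it was 0.47 (adjusted p = 0.366). Without control 1 it was 0.94 and passed (adjusted p = 0.0237). In 67NR tumors of BALB/c mice *Cd48* ran from 9.41 over 11.34 to 12.15 in BPTF KD tumors, against 9.97, 10.26 and 9.82 in controls, with 4 tumors above every control and tumor 2 below. The difference was 1.02 ± 0.59 (adjusted p = 0.693).

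*Cd48* in NSG mice differed by 0.28 ± 0.35 in 67NR tumors (adjusted p = 0.780) and by -0.08 ± 0.20 in 66cl4 tumors (adjusted p = 0.965). The first value was held down by BPTF KD tumor 5, which had 8.09, against 9.50 to 10.15 in the other 5 BPTF KD tumors and 9.05 to 9.27 in controls. *Icam2* differed by 0.59 ± 0.23 in 66cl4 tumors of BALB/c mice, with 4 of 6 BPTF KD tumors above every control (adjusted p = 0.148). In 67NR tumors of NSG mice it was 0.50 ± 0.27 with 5 of 6 above (adjusted p = 0.443), and without BPTF KD tumor 5 it was 0.70 (adjusted p = 0.0200). In 67NR tumors of BALB/c mice the *Icam2* difference was 0.28 ± 0.42 and in 66cl4 tumors of NSG mice -0.12 ± 0.23, both smaller than their errors.

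Leukocyte, NK cell and T cell markers did not pass the threshold in either knockdown comparison of BALB/c mice, and 1 of 6 B cell markers was higher in BPTF KD 66cl4 tumors. The mean of 8 pan-leukocyte genes was 10.99 to 12.51 in BPTF KD 67NR tumors and 10.64 to 10.75 in controls, without overlap, but 11.27 to 11.56 in BPTF KD 66cl4 tumors and 11.28 to 11.48 in controls, with overlap. The mean of 6 NK cell genes was 8.34 to 10.28 in BPTF KD 67NR tumors and 8.01 to 8.11 in controls of BALB/c mice. In 66cl4 tumors it was 7.56 to 8.54 in BPTF KD and 7.02 to 7.65 in controls, with overlap. The T cell mean overlapped in 67NR tumors, at 6.55 to 9.85 in BPTF KD and 5.90 to 6.87 in controls, but not in 66cl4 tumors, at 6.26 to 7.23 in BPTF KD and 5.80 to 6.11 in controls. The B cell mean overlapped in neither line, at 5.67 to 6.97 in BPTF KD and 5.42 to 5.55 in control 67NR tumors, and at 5.63 to 6.06 in BPTF KD and 5.20 to 5.58 in control 66cl4 tumors. The part of these cells in the ligand differences was not tested. BPTF KD tumor 3 of 67NR in BALB/c mice stood apart. It had the highest *Icam1*, *Vcam1* and *Cd48* of its group, the highest leukocyte mean and a skeletal muscle mean of 11.72, against 5.36 to 7.46 in the other 5 BPTF KD tumors and 5.30 to 5.57 in controls. Without it the differences were 0.86 for *Vcam1*, 1.00 for *Icam1* and 0.80 for *Cd48*. In 66cl4 tumors of BALB/c mice the skeletal muscle mean was 6.66 to 11.49 in BPTF KD and 8.98 to 11.20 in controls. The part of muscle in the ligand differences was not tested.

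**Figure D2:**
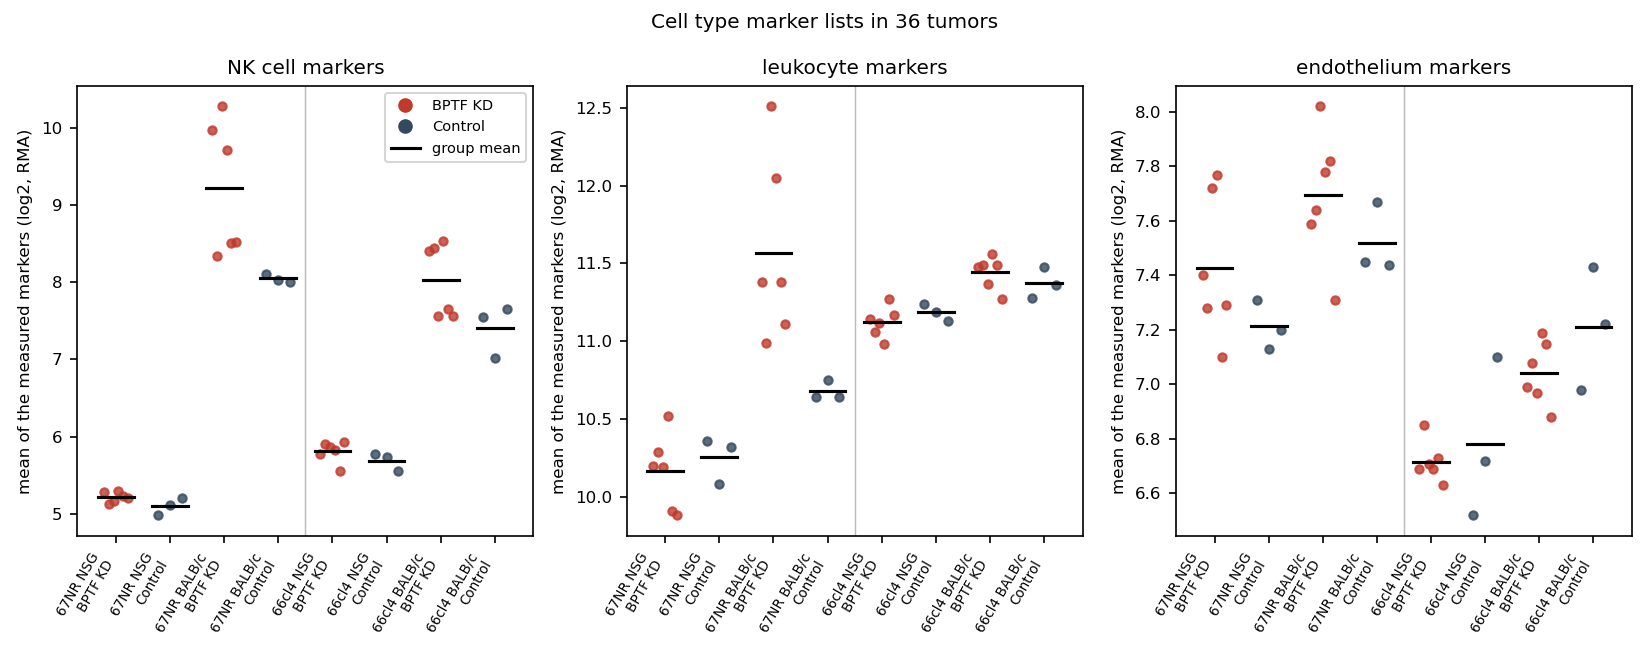
Mean log2 expression of the NK cell, leukocyte and endothelium marker lists in every tumor, 1 panel per list, with the 8 groups along the horizontal axis and each point a tumor. NK cell means were 4.98 to 5.93 in NSG tumors and 7.02 to 10.28 in BALB/c tumors, and the 2 highest leukocyte means, 12.51 and 12.05, were in BPTF KD 67NR tumors 3 and 4 of BALB/c mice.

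*Pvr* and *Nectin2*, the DNAM-1 ligands, showed no increase past the threshold. *Pvr* in 67NR tumors of BALB/c mice ran from 8.41 over 8.96 to 9.40 in BPTF KD tumors, against 9.22, 9.27 and 9.46 in controls. There 4 of 6 BPTF KD tumors lay below every control and none above, and the difference was -0.38 ± 0.21 (adjusted p = 0.686). All 6 *Pvr* probe sets were lower there, by -0.38 to -0.80, and in 3 of them 6 of 6 BPTF KD tumors lay below every control, although none passed the threshold. Of all probe sets, 3.22% had every BPTF KD tumor below every control in that comparison. The brightest set in 67NR tumors of NSG mice gave -0.13 ± 0.17, with 5 of 6 BPTF KD tumors below every control, but tumor 5, at 9.71, was the highest of all. In 66cl4 tumors it gave -0.03 ± 0.15 in BALB/c mice, a sign that turned when each array's median was subtracted, and -0.05 ± 0.11 in NSG mice. The brightest *Pvr* set is of a type that can bind related transcripts, so its level may include them. In 66cl4 tumors of NSG mice 2 of the dimmer sets, at -0.33 and -0.34, had all 6 BPTF KD tumors below every control, as did 1.26% of all probe sets, while another gave 0.21.

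*Nectin2* stayed within a narrow band, from 6.72 to 7.80 over all 36 tumors. Its differences were 0.12 ± 0.18 and 0.18 ± 0.11 in 67NR and 66cl4 tumors of BALB/c mice, and 0.21 ± 0.14 and -0.04 ± 0.08 in 67NR and 66cl4 tumors of NSG mice, with adjusted p-values of 0.886, 0.357, 0.546 and 0.961. The other *Nectin2* probe set gave -0.31 in 66cl4 tumors of BALB/c mice and 0.15 in those of NSG mice, opposite to the brighter set in both, so no direction can be given for that line.

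**Figure D3:**
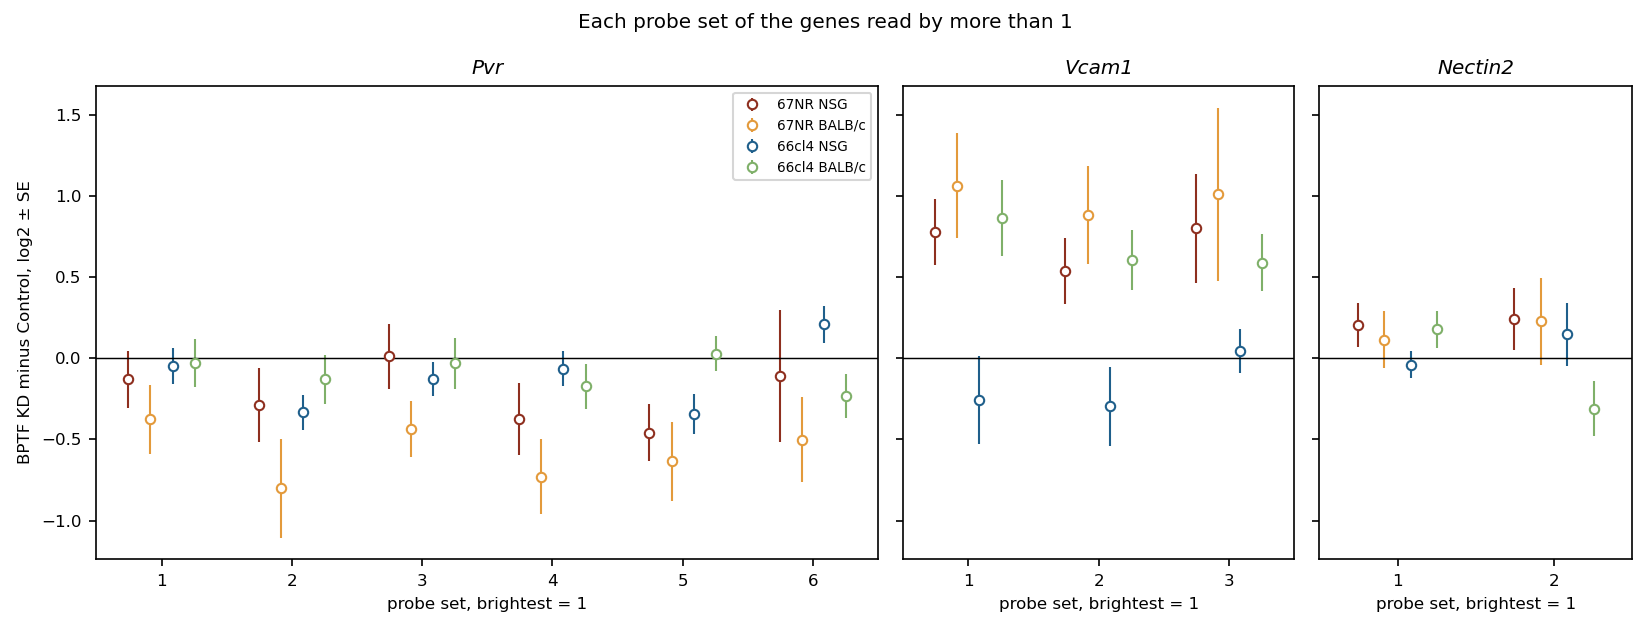
Log2 difference, BPTF KD minus control, of each probe set of *Pvr*, *Vcam1* and *Nectin2* in the 4 combinations of line and host; points are limma estimates and bars their SE. All 6 *Pvr* sets lay below 0 in 67NR tumors of BALB/c mice, and the 3 *Vcam1* sets lay above 0 in every comparison but 66cl4 in NSG mice.

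Over the 6 ligands the median knockdown difference was 0.66 in 67NR and 0.38 in 66cl4 tumors of BALB/c mice, and 0.24 in 67NR and -0.10 in 66cl4 tumors of NSG mice, beside medians of all genes between -0.003 and 0.03. Their receptors behaved likewise in having no call. Of 11 receptor genes measured, 0 passed in each comparison, with medians of 0.77 and 0.21 in 67NR and 66cl4 tumors of BALB/c mice and -0.04 and 0.09 in 67NR and 66cl4 tumors of NSG mice. The receptor with the smallest p in 67NR tumors of BALB/c mice was *Cd2*, which binds CD48 on the opposing cell, at 2.43 ± 0.58 (adjusted p = 0.566). The 9 genes of the SLAM family had medians of 1.20 and 0.69 in 67NR and 66cl4 tumors of BALB/c mice and 0 calls. *Slamf8*, a macrophage member of that family, was 1.37 ± 0.28 higher in 66cl4 tumors (adjusted p = 0.0648).

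Of 14 genes of the interferon gamma response, *Cxcl9*, a chemokine that draws lymphocytes, passed in 66cl4 tumors of BALB/c mice with a rise of 2.28 ± 0.29 (adjusted p = 0.0331). *Irf1*, a transcription factor induced by interferon, rose in 67NR tumors of NSG mice by 0.68 ± 0.12 (adjusted p = 0.0278), and *Ifng* itself fell by 0.71 ± 0.13 (adjusted p = 0.0325). The NSG hosts lack T and NK cells. The NK cell mean was 5.12 to 5.29 in these BPTF KD tumors and 4.98 to 5.21 in controls. The *Ifng* value is therefore given as a probe set difference only. No gene of the response passed in the other comparisons, and the list medians were 1.79 and 0.78 in 67NR and 66cl4 tumors of BALB/c mice. Among 5 measured genes of other activating NK receptor ligands and their partners, 13 of the NF-kB pathway, 14 of endothelial leukocyte adhesion, 6 nectins and related proteins and 3 MHC class I genes, none passed in any of the 4 comparisons. Among them *Cd27*, the receptor of CD70, differed by 1.10 ± 0.25 in 66cl4 tumors of BALB/c mice (adjusted p = 0.0674). The cytokine gene *Il1b* differed by 1.21 ± 0.21 in the same tumors (adjusted p = 0.0566).

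The second question was how the ligands differed between NSG and BALB/c hosts. *Icam1* was lower in NSG tumors in all 4 comparisons, and the groups did not overlap in any of them. It fell past the threshold in BPTF KD 67NR tumors and in BPTF KD and control 66cl4 tumors. *Cd48* fell in NSG mice in both 67NR comparisons and did not pass in 66cl4. *Vcam1* and *Pvr* fell in BPTF KD 66cl4 tumors, and *Nectin2* rose in BPTF KD 67NR tumors. Calls among the 6 ligands were 3 in BPTF KD 67NR, 1 in control 67NR, 3 in BPTF KD 66cl4 and 1 in control 66cl4 tumors. Of all genes, 15.8%, 7.58%, 11.1% and 2.53% were called in the same order. Groups did not overlap for 8.46%, 33%, 5.12% and 35% of all genes (NSG lower in 5.01%, 20%, 3.21% and 18.5%), so non-overlap is common where 3 tumors meet 3.

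*Icam1* in BPTF KD 67NR tumors ran from 5.63 over 6.56 to 7.07 in NSG mice, against 7.12 over 8.44 to 9.73 in BALB/c mice. The difference was -1.97 ± 0.44 (adjusted p = 0.00919), an expression ratio of 0.256. In BPTF KD 66cl4 tumors *Icam1* ran from 6.65 over 7.06 to 7.44 in NSG mice, against 7.55 over 7.81 to 7.95 in BALB/c mice. That difference was -0.76 ± 0.12 (adjusted p = 0.000932), smaller than in 67NR but with less spread. Both held when any 1 tumor was left out, at an adjusted p of at most 0.0225 in 67NR and 0.00309 in 66cl4. In a fit of all 36 tumors together, which shares 1 estimate of the spread, the 66cl4 call was lost (adjusted p = 0.150).

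Among controls, *Icam1* was 6.91, 6.69 and 6.85 in 67NR tumors of NSG mice, against 7.13, 7.26 and 7.38 in BALB/c mice. All 3 NSG tumors lay below every BALB/c tumor, and the difference of -0.44 ± 0.11 had an adjusted p of 0.0542. Control 66cl4 tumors had 7.03, 7.35 and 7.15 in NSG mice, against 7.73, 8.20 and 8.04 in BALB/c mice. The difference was -0.81 ± 0.16 (adjusted p = 0.0483). It passed with 1 tumor left out only without BALB/c control 1, where the adjusted p was 0.0209, and was 0.0958 to 0.142 without any other tumor.

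*Cd48* followed the host in 67NR tumors. Controls had 9.21, 9.05 and 9.27 in NSG mice, against 9.97, 10.26 and 9.82 in BALB/c mice. The difference of -0.84 ± 0.14 passed (adjusted p = 0.0127), with 3 of 3 NSG tumors below every BALB/c tumor, and missed the threshold without BALB/c control 1 (adjusted p = 0.0566). BPTF KD 67NR tumors ran from 8.09 over 9.61 to 10.15 in NSG mice, against 9.41 over 11.34 to 12.15 in BALB/c mice. These ranges overlapped, and the difference was -1.58 ± 0.49 (adjusted p = 0.0454). That call held without BALB/c BPTF KD tumor 2 or tumor 5 and was lost without any other, with an adjusted p of up to 0.0972.

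In BPTF KD 66cl4 tumors *Cd48* had nearly equal means in both hosts, 11.53 ± 0.40 in NSG mice and 11.52 ± 0.25 in BALB/c mice (SD, n = 6 each), with an SE of 0.17 on their difference (adjusted p = 0.996). Control 66cl4 tumors had 11.59, 11.62 and 11.61 in NSG mice, against 11.09, 10.15 and 11.03 in BALB/c mice, a difference of 0.85 ± 0.25 that did not pass (adjusted p = 0.0790). The pan-leukocyte mean in 66cl4 controls was 11.13 to 11.24 in NSG mice and 11.28 to 11.48 in BALB/c mice, the other way from *Cd48*. The T cell and NK cell means were lower in NSG mice too. The neutrophil mean went the same way as *Cd48*, at 7.52 to 7.82 in NSG mice and 6.64 to 7.12 in BALB/c mice. The macrophage mean overlapped, at 12.31 to 12.48 in NSG mice and 12.24 to 12.53 in BALB/c mice. In 67NR tumors the pan-leukocyte mean went the same way as *Cd48*. It was 9.88 to 10.52 in BPTF KD and 10.08 to 10.36 in control tumors of NSG mice. In BALB/c mice it was 10.99 to 12.51 in BPTF KD and 10.64 to 10.75 in control tumors. The part of leukocyte number in these differences was not tested.

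*Vcam1* in BPTF KD 66cl4 tumors ran from 9.05 over 9.47 to 10.45 in NSG mice, against 10.08 over 10.33 to 10.83 in BALB/c mice. In NSG mice 5 of 6 tumors lay below every BALB/c tumor, and the fall was -0.80 ± 0.21 (adjusted p = 0.0268). The call was lost without NSG BPTF KD tumor 1, 4 or 6 or BALB/c BPTF KD tumor 1 or 6, with an adjusted p of up to 0.0611. The next brightest *Vcam1* set gave -0.56 ± 0.20 and did not pass (adjusted p = 0.0840 over all probe sets). The dimmest set averaged 7.44 in NSG mice and 7.905 in BALB/c mice. *Pvr* fell by 0.38 ± 0.10 in the same comparison (adjusted p = 0.0298), where its brightest set ran from 7.71 over 7.92 to 8.09 in NSG mice, against 8.09 over 8.21 to 8.64 in BALB/c mice. That call was lost without NSG BPTF KD tumor 2, 3, 4 or 6 or BALB/c BPTF KD tumor 3 or 5 (adjusted p up to 0.0715). None of the other 5 *Pvr* sets passed, and their differences ran from -0.21 to 0.10. The 8 skeletal muscle markers were all lower in NSG in this line, with a median difference of -4.17 in BPTF KD and -4.10 in control tumors, and 4 of 12 endothelium markers fell in BPTF KD tumors. Neither was tested for a part in the *Vcam1* or *Pvr* values.

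*Nectin2* in BPTF KD 67NR tumors ran from 7.33 over 7.45 to 7.80 in NSG mice, against 6.84 over 6.96 to 7.57 in BALB/c mice, a rise of 0.44 ± 0.13 (adjusted p = 0.0429). In BALB/c mice 5 of 6 tumors had 6.84 to 7.05 and tumor 3 had 7.57. The call was lost without any 1 tumor other than BALB/c tumor 3, with an adjusted p of up to 0.0860, and the mean of both probe sets did not pass (adjusted p = 0.213). *Pvr* in BPTF KD 67NR tumors differed by 0.21 ± 0.19 at its brightest set (adjusted p = 0.496). Of its other 5 sets, 3 were higher in NSG tumors past the threshold over all probe sets, by 0.90 ± 0.27, 0.86 ± 0.22 and 0.67 ± 0.20 (adjusted p = 0.0420, 0.0213 and 0.0411). In control 67NR tumors 2 sets were higher in NSG past the threshold, by 0.38 ± 0.10 and 0.51 ± 0.12, while the brightest gave -0.04 ± 0.11, so the sets of this gene differ in their call. *Icam2* passed in none of the host comparisons. Its differences were -0.10 ± 0.34 and -0.32 ± 0.23 in BPTF KD and control 67NR tumors, and -0.30 ± 0.22 and 0.40 ± 0.15 in BPTF KD and control 66cl4 tumors.

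**Figure D4:**
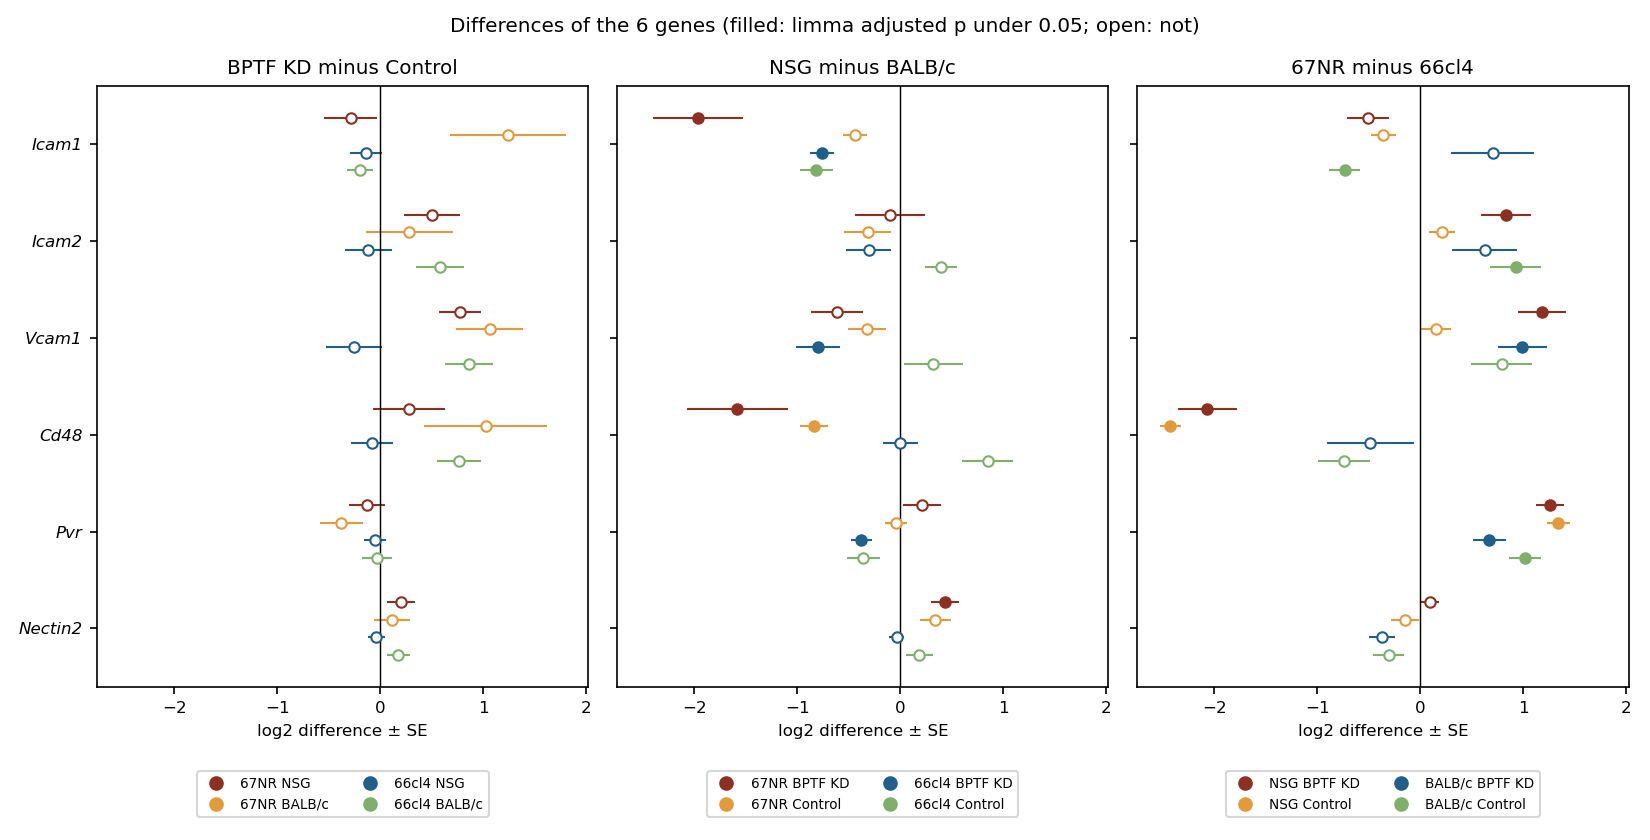
Log2 differences of the 6 genes with their SE in 3 panels, BPTF KD minus control, NSG minus BALB/c and 67NR minus 66cl4; filled points passed an adjusted p of 0.05 with limma. No knockdown difference is filled, *Icam1* lies below 0 in all 4 host comparisons, and *Pvr* lies above 0 in all 4 line comparisons.

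The receptors of the ligands include *Cd2* and *Cd244a*, which bind CD48, and the integrin chains that bind the ICAMs and VCAM-1. Of all genes, 8.09%, 3.93%, 6.38% and 1.26% were called lower in NSG in BPTF KD 67NR, control 67NR, BPTF KD 66cl4 and control 66cl4 tumors. Of 11 receptors measured, 8 fell in BPTF KD 67NR, 6 in control 67NR, 6 in BPTF KD 66cl4 (1 rose) and 1 in control 66cl4 tumors. *Cd2* fell by 3.88 ± 0.40 in BPTF KD 67NR tumors (adjusted p = 0.000112) and by 2.31 ± 0.22 in BPTF KD 66cl4 tumors (adjusted p = 1.22e-05). In BPTF KD 67NR tumors *Cd244a* fell by 2.59 ± 0.34 (adjusted p = 0.000454), and *Itgal*, the LFA-1 alpha chain that binds ICAM-1, by 1.21 ± 0.21 (adjusted p = 0.00265). Of the 9 SLAM family genes, 7, 4, 4 and 1 fell in BPTF KD 67NR, control 67NR, BPTF KD 66cl4 and control 66cl4 tumors, and of 14 interferon gamma response genes 12, 5, 10 and 2 did. *Cxcl9* fell by 6.97 ± 0.46 in BPTF KD 67NR tumors (adjusted p = 5.18e-06). Of 13 NF-kB genes, 7, 3, 6 and 0 fell, among them *Birc3*, an inhibitor of apoptosis, by 1.80 ± 0.30 in BPTF KD 67NR tumors (adjusted p = 0.00198) and by 0.68 ± 0.13 in BPTF KD 66cl4 tumors (adjusted p = 0.00300). All 6 NK cell markers fell in 3 of the comparisons and 2 of 6 in control 66cl4 tumors.

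The third question was how the ligands differed between the lines. Calls among the 6 ligands were 2 in BPTF KD tumors of BALB/c mice, 3 in controls of BALB/c mice, 4 in BPTF KD tumors of NSG mice and 2 in controls of NSG mice. The lines differ widely over the whole array, with 14%, 26.1%, 42.5% and 36.2% of all genes called in the same order and 6.78%, 40.7%, 22% and 49.2% with groups that did not overlap. *Pvr* was higher in 67NR than in 66cl4 in all 4 comparisons and passed in each. *Cd48* was lower in 67NR in NSG mice, where its difference was the largest of any of the 6 genes between lines.

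*Pvr* in NSG mice ran from 8.84 over 9.14 to 9.71 in BPTF KD 67NR tumors, against 7.71 over 7.92 to 8.09 in BPTF KD 66cl4 tumors, a difference of 1.26 ± 0.13 (adjusted p = 5.16e-06). Controls had 9.26, 9.28 and 9.30 in 67NR, against 7.77, 8.01 and 8.04 in 66cl4, a difference of 1.34 ± 0.11 (adjusted p = 0.000204). Neither pair of groups overlapped. In BALB/c mice the differences were 0.67 ± 0.16 in BPTF KD tumors (adjusted p = 0.0170; 5 of 6 67NR tumors above every 66cl4 tumor) and 1.02 ± 0.15 in controls (adjusted p = 0.00177; 3 of 3 above). All 6 *Pvr* probe sets were higher in 67NR in each of the 4 comparisons. With the mean of its sets in place of the brightest, the call in BPTF KD tumors of BALB/c mice was lost (0.35, adjusted p = 0.162). The order of the group means ran from 67NR controls of BALB/c mice (9.32 ± 0.13) and NSG mice (9.28 ± 0.02) down to BPTF KD 66cl4 tumors of NSG mice (7.89 ± 0.15, SD), and the only neighbours without overlap were the BPTF KD 66cl4 tumors of BALB/c mice and the 66cl4 controls of NSG mice.

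*Cd48* in NSG mice ran from 8.09 over 9.61 to 10.15 in BPTF KD 67NR tumors, against 10.85 over 11.55 to 11.99 in BPTF KD 66cl4 tumors. The difference was -2.07 ± 0.29 (adjusted p = 5.94e-05), with 6 of 6 67NR tumors below every 66cl4 tumor. Controls had 9.21, 9.05 and 9.27 in 67NR, against 11.59, 11.62 and 11.61 in 66cl4, a difference of -2.43 ± 0.10 (adjusted p = 2.41e-05). In BALB/c mice it did not pass, at -0.48 ± 0.43 in BPTF KD tumors (adjusted p = 0.503) and -0.74 ± 0.25 in controls (adjusted p = 0.0634). Of 8 leukocyte markers, 6 were lower in 67NR in each NSG comparison and 5 in the control comparison of BALB/c mice, and 0 passed in the BPTF KD comparison of BALB/c mice. Of all genes, 42.5% and 36.2% were called in either direction in BPTF KD and control tumors of NSG mice. In BALB/c mice 26.1% were called in controls and 14% in BPTF KD tumors. The SLAM genes *Cd84* and *Slamf9* were lower in 67NR too, by -1.62 and -1.75 in BPTF KD tumors of NSG mice. The part of leukocyte number in these *Cd48* values was not tested.

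*Vcam1* was higher in 67NR than in 66cl4 among BPTF KD tumors, by 0.99 ± 0.24 in BALB/c mice (adjusted p = 0.0152; 6 of 6 above) and by 1.18 ± 0.23 in NSG mice (adjusted p = 0.000923; 5 of 6 above). Among controls the difference was 0.79 ± 0.30 in BALB/c mice (adjusted p = 0.0861) and 0.15 ± 0.15 in NSG mice, and neither passed. The dimmest *Vcam1* set did not pass in BALB/c BPTF KD tumors (0.50 ± 0.39, adjusted p = 0.443), and the mean of the 3 sets gave 0.75 there (adjusted p = 0.0775). *Icam2* was higher in 67NR among BPTF KD tumors of NSG mice (0.83 ± 0.24, adjusted p = 0.0138) and controls of BALB/c mice (0.93 ± 0.24, adjusted p = 0.0242). The second call was lost without 67NR control 1 or 2 or 66cl4 control 2 or 3, with an adjusted p of up to 0.0836. Of 12 endothelium markers, 6, 2, 9 and 7 were higher in 67NR in the 4 comparisons, in the order BPTF KD and control of BALB/c mice, then BPTF KD and control of NSG mice. Of all genes, 14%, 26.1%, 42.5% and 36.2% were called in either direction in the same order. *Emcn*, a marker of capillary and venous endothelium, was 1.60 higher in BPTF KD 67NR tumors of NSG mice, while *Vwf* was 2.03 lower. Whether endothelium accounts for the *Icam2* or *Vcam1* values was not tested. In the control comparison of BALB/c mice, markers of several other cell types were lower in 67NR. They were 8 of 8 skeletal muscle (median difference -4.40), 7 of 9 macrophage, 5 of 8 fibroblast (1 higher) and 5 of 8 leukocyte markers. Of 6 NK cell markers, 2 were higher and 1 lower. The part of these cells in the *Icam2* and *Icam1* values was not tested. *Icam1* was lower in 67NR controls than in 66cl4 controls of BALB/c mice, at 7.13, 7.26 and 7.38 in 67NR against 7.73, 8.20 and 8.04 in 66cl4 (-0.73 ± 0.15, adjusted p = 0.00816), and passed in no other line comparison. *Nectin2* passed in none at its brighter set, and its dimmer set was higher in BPTF KD 67NR tumors of NSG mice (0.56 ± 0.16, adjusted p = 0.0147 over all probe sets).

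The order of group means separated the genes. *Icam1* was highest in BPTF KD 67NR tumors of BALB/c mice (8.50 ± 1.07, SD), then in the 66cl4 controls (7.99 ± 0.24) and BPTF KD 66cl4 tumors (7.80 ± 0.15) of BALB/c mice, and lowest in BPTF KD 67NR tumors of NSG mice (6.53 ± 0.50). The only neighbours in that order without overlap were the BPTF KD 66cl4 and control 67NR tumors of BALB/c mice. *Cd48* was highest in 66cl4 controls of NSG mice (11.61 ± 0.02), followed by both BPTF KD 66cl4 groups, and lowest in 67NR controls of NSG mice (9.18 ± 0.11). *Vcam1* was highest in BPTF KD 67NR tumors of BALB/c mice (11.42) and NSG mice (10.81), and lowest in 66cl4 controls of BALB/c mice (9.56). Neighbouring groups of *Cd48*, *Vcam1*, *Icam2* and *Nectin2* all overlapped.

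Within groups the ligands did not move as a block. Each tumor's deviation from its group mean was correlated across the 36 tumors, which share group means and, in a single tumor, 1 RNA extract and 1 array, so the values are descriptions. *Cd48* and *Icam2* deviated together (r = 0.872), and both ran opposite to *Pvr* (r = -0.764 for *Cd48* and -0.752 for *Icam2*). Correlations of the ranks were weaker, at 0.728 for *Cd48* with *Icam2*, -0.61 for *Cd48* with *Pvr* and -0.607 for *Icam2* with *Pvr*. *Icam1* showed no relation to *Cd48* (r = 0.023). Without the BPTF KD 67NR tumors of BALB/c mice, 30 tumors gave 0.805 for *Cd48* with *Icam2*, -0.672 for *Cd48* with *Pvr* and -0.673 for *Icam2* with *Pvr*. A single tumor illustrates the pattern: BPTF KD 67NR tumor 5 of NSG mice had the lowest *Cd48* (8.09) and *Icam2* (7.60) of its group and the highest *Pvr* (9.71). This tumor is flagged below as far from its group in *Cd48* and *Icam2*, and its weight in these correlations was not tested.

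**Figure D5:**
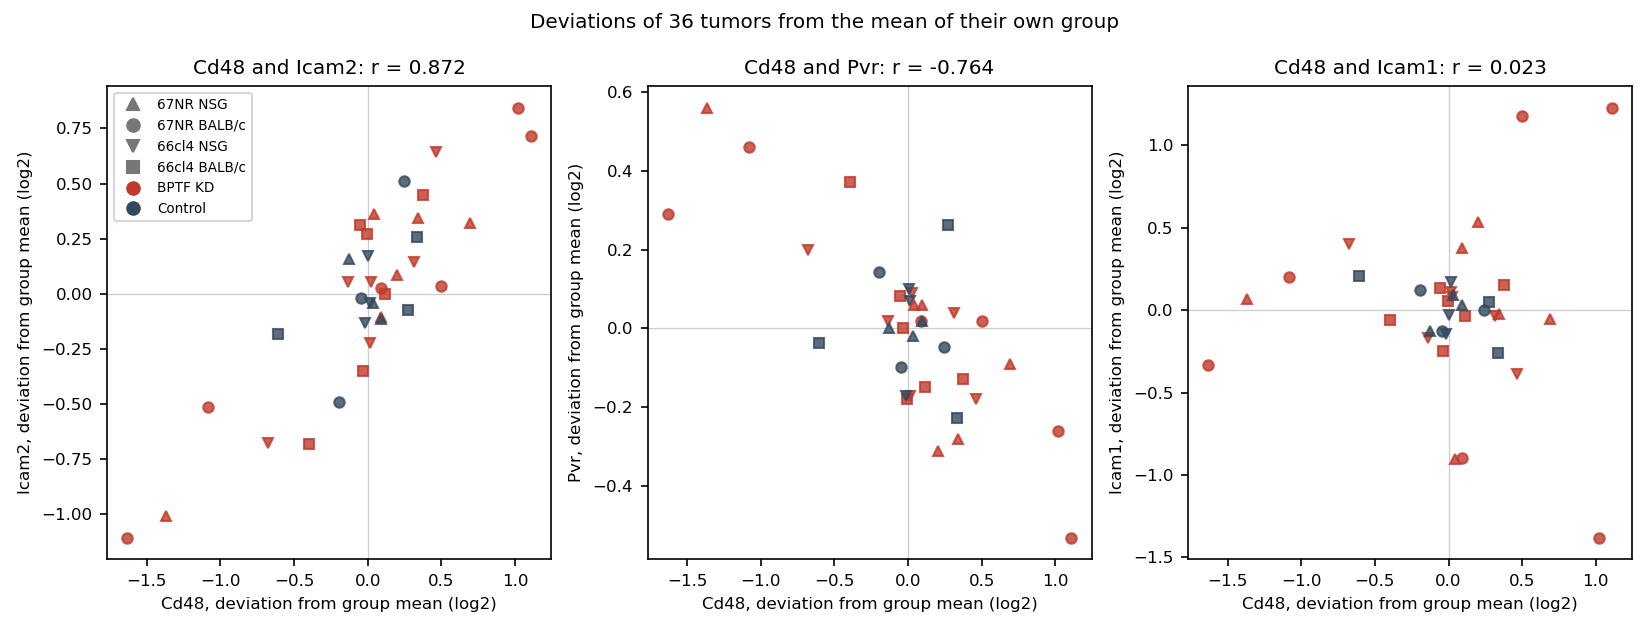
Deviation of *Cd48* from its group mean in each of 36 tumors (log2) plotted against the deviation of *Icam2*, *Pvr* and *Icam1*, 1 panel each; points are tumors. The points rise together for *Icam2* (r = 0.872), run opposite for *Pvr* (r = -0.764) and show no trend for *Icam1* (r = 0.023).

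The genes whose deviations were most like each ligand were read over the same 36 tumors. For *Cd48* they were *Tyrobp* (r = 0.983), an adaptor of myeloid and NK cell receptors, *Cd53* (0.969), a leukocyte tetraspanin, and *Smpdl3a* (0.958). For *Icam2* they were *Coro1b* (0.916), *Nmi* (0.901) and *Rmdn3* (0.899). For *Icam1* they were *Arhgdib* (0.925), a gene of the pan-leukocyte list, *Sod2* (0.919), the mitochondrial superoxide dismutase, and *Coa5* (0.910). *Cd53*, named for *Cd48*, is on the same list, but *Icam1* and *Cd48* had r = 0.023, so *Arhgdib* does not stand for that list. Without the BPTF KD 67NR tumors of BALB/c mice *Arhgdib* had r = 0.859 and *Sod2* r = 0.757. For *Pvr* they were *Map3k6* (0.857), *Slc41a1* (0.839) and *Fosl1* (0.838), a subunit of the AP-1 transcription factor. *Vcam1* was closest to *Gpr31b* (0.738), *Cybb* (0.728), the phagocyte oxidase subunit, and *Ip6k1* (0.699), and *Nectin2* to *Slc4a1ap* (0.724), *Hbp1* (0.715) and *Prkab1* (0.715).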

How the data were processed

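Total RNA (500 ng per tumor) from 36 tumors, dissected free of necrotic tissue, was hybridised to mouse expression arrays. The deposited values are log2 intensities that the authors made with RMA, per the submitters' processing notes (its version is not given in the sources used here). They were used as deposited, with 0 missing values among 22690 probe sets and 0 columns of other samples. Of the probe sets, 691 named several genes and 1606 none, and these were not named here. Symbols of 20364 of the rest were updated through their Entrez number. A gene was represented by the set with the highest mean over the 36 tumors. The number of arrays limits the precision.

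Groups came from the GEO labels. Each comparison was fitted with limma 3.58.1 in R 4.3.3 (lmFit and eBayes) on the tumors of the groups compared only, with p-values adjusted by the Benjamini-Hochberg method across the 12394 genes and called at 0.05. Interactions used the 4 groups concerned. Tumors are the samples of a group, and p-values set a difference against the spread between them. That spread does not cover new transductions of the lines. Alternatives tried were array weights, the replicate number as a block, quantile normalization, subtraction of array medians, the mean of a gene's sets, all probe sets, omission of the dimmest 25% of genes, 1 joint fit of the 36 tumors, the t-test that the methods name, and omission of each tumor in turn. The scripts were tested on simulated data.

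The 6 members are all named in each comparison, and of each further list its counts, its median and up to 4 genes with the smallest p. Likeness is Pearson's r of deviations from group means, with the 3 closest genes named. The members and lists were chosen with earlier results of these data known. Listed genes without a probe set of their own were not analysed here. Tables, motif searches and figures used Python 3.11.15 (matplotlib 3.10.9, scipy 1.17.1, pandas 2.3.3 and numpy 2.4.6).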

Additional observations from a re-analysis of the deposited data

Results flagged for a closer look

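Each of the 6 ligands was examined in each group of 6 tumors, which gave 24 sets of values. Of these, 3 held a tumor whose gap to its nearest neighbour was large against the range of the set by Dixon's criterion. Chance flags about 1 in 20 independent sets. These sets share tumors and are not independent, so the number of flags cannot be set against that rate. In BPTF KD 67NR tumors of NSG mice, tumor 5 had an *Icam2* level of 7.60, against 8.50 to 8.97 in the other 5. The same tumor had a *Cd48* level of 8.09, against 9.50 to 10.15 in the other 5, and the highest *Pvr* (9.71) and *Bptf* (10.01) of its group. In BPTF KD 67NR tumors of BALB/c mice, tumor 3 had a *Nectin2* level of 7.57, against 6.84 to 7.05 in the other 5, and its skeletal muscle mean was 11.72.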

How the results depend on the processing

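The number of ligands called moved with the setting in several comparisons, and the cause was not tested. For BPTF KD against controls, where no ligand passed, the fit of all 36 tumors called 2 in 67NR tumors of BALB/c mice, array weights called 2 there, 2 in 66cl4 tumors of BALB/c mice and 2 in 67NR tumors of NSG mice, and the replicate block called 2 in 67NR tumors of NSG mice. For NSG against BALB/c, the 3 calls in BPTF KD 67NR became 1 with the methods' t-test, 2 with array medians subtracted and with the mean of probe sets, and 4 with the fit of all 36 tumors. The 1 call in control 67NR became 0 with the methods' t-test and the fit of all 36 tumors, and 2 without the dimmest genes, with quantile normalization, with array medians subtracted, with the mean of probe sets and with array weights. The 3 calls in BPTF KD 66cl4 became 1 with the methods' t-test and the fit of all 36 tumors, and 2 with the replicate block and with the mean of probe sets. The 1 call in control 66cl4 became 0 with quantile normalization, the methods' t-test and the fit of all 36 tumors, 2 with the replicate block and 4 with array weights. For 67NR against 66cl4, the 2 calls in BPTF KD tumors of BALB/c mice became 1 with the replicate block, 0 with the mean of probe sets, 3 with the fit of all 36 tumors and with quantile normalization, and 4 with array weights. The 3 in controls of BALB/c mice became 1 with the methods' t-test and the fit of all 36 tumors and 4 with array weights. In NSG mice the 4 in BPTF KD tumors became 5 with quantile normalization, array medians subtracted and the mean of probe sets, and the 2 in controls became 3 with those settings, without the dimmest genes and with array weights. Array weights gave 1 call in place of 0 in 3 interactions, between hosts in 67NR and between lines in BALB/c and in NSG mice. One of the array weight fits stopped before its convergence tolerance was reached.

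Leaving out 1 tumor, the calls among the 6 ligands for BPTF KD against controls ran from 0 to 0 in 67NR and 0 to 1 in 66cl4 tumors of BALB/c mice, and from 0 to 2 in 67NR and 0 to 0 in 66cl4 tumors of NSG mice. For NSG against BALB/c they ran from 1 to 2 in BPTF KD 67NR, 0 to 1 in control 67NR, 1 to 3 in BPTF KD 66cl4 and 0 to 3 in control 66cl4 tumors. For 67NR against 66cl4 they ran from 2 to 3 in BPTF KD and 2 to 3 in control tumors of BALB/c mice, and from 4 to 5 in BPTF KD and 2 to 3 in control tumors of NSG mice.

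Signs turned for small differences. For BPTF KD minus control in 66cl4 tumors of BALB/c mice, *Pvr* was 0.0255 with quantile normalization and 0.0167 with array medians subtracted, and *Nectin2* -0.0667 with the mean of probe sets. In 66cl4 tumors of NSG mice, *Nectin2* was 0.0003 with quantile normalization, 0.0067 with array medians subtracted and 0.0542 with the mean of probe sets, *Pvr* was 0.0080 with quantile normalization, and with the replicate block *Icam2* was 0.17, *Cd48* 0.19 and *Vcam1* 0.0433. For NSG minus BALB/c, *Icam2* in BPTF KD 67NR was 0.14 with array weights, and *Pvr* in control 67NR 0.26 with the mean of probe sets. In BPTF KD 66cl4, *Cd48* was -0.0184 and *Nectin2* 0.0452 with quantile normalization, and *Nectin2* 0.0133 with array medians subtracted. In control 66cl4, *Nectin2* was -0.29 with the mean of probe sets and *Vcam1* -0.0122 with array weights. For 67NR minus 66cl4 in NSG controls, *Nectin2* was 0.16 with the mean of probe sets. Among interactions, *Nectin2* was 0.12 between hosts in 66cl4 and 0.24 between lines in BALB/c mice with the mean of probe sets. With array weights *Icam1* was -0.0922 and *Pvr* 0.0829 between hosts in 66cl4, and *Icam1* 0.10 between lines in NSG mice.

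Leaving out 1 tumor also turned the sign of small differences. For BPTF KD minus control, *Pvr* ran from -0.14 to 0.10 in 66cl4 tumors of BALB/c mice, and in 66cl4 tumors of NSG mice *Icam2* ran from -0.244 to 0.020 and *Cd48* from -0.173 to 0.0553. For NSG minus BALB/c, *Icam2* ran from -0.319 to 0.10 in BPTF KD 67NR, *Pvr* from -0.085 to 0.035 in control 67NR, *Cd48* from -0.091 to 0.14 and *Nectin2* from -0.065 to 0.001 in BPTF KD 66cl4, and *Vcam1* from -0.0017 to 0.543 in control 66cl4 tumors. Interactions between hosts ran from -0.0367 to 0.463 for *Icam2* and -0.0067 to 0.218 for *Nectin2* in 67NR, and from -0.05 to 0.185 for *Icam1* and -0.153 to 0.0917 for *Pvr* in 66cl4. Those between lines ran from -0.17 to 0.0417 for *Nectin2* and -0.0233 to 0.522 for *Vcam1* in BALB/c mice, and from -0.252 to 0.0357 for *Icam1* and -0.192 to 0.005 for *Pvr* in NSG mice.

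The replicate numbers did not pair the tumors, since no comparison had every same-numbered pair correlated above the limit, and the lowest pair ran from -0.45 to 0.03 over the comparisons. With the block, *Cd48* (0.66, adjusted p = 0.0457) and *Vcam1* (0.84, adjusted p = 0.0495) passed for BPTF KD in 67NR tumors of NSG mice. Over all genes that comparison had 141 calls, 685 with the block, 136 in the fit of all 36 tumors and 10 with the methods' t-test. BPTF KD in 66cl4 tumors of BALB/c mice had 23, 7, 0 and 0 in the same order, and in 67NR tumors of BALB/c mice 0, 0, 607 and 0. NSG against BALB/c had 940, 794, 371 and 15 in control 67NR tumors, 1370, 1222, 579 and 1058 in BPTF KD 66cl4 tumors, and 314, 2268, 318 and 0 in control 66cl4 tumors.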
